A study of Homo sapiens with 6 samples.

Results

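The genes described here are 59 genes of mitosis, the machinery that condenses, attaches, aligns and parts the chromosomes and then cuts the cell in 2. They were chosen by name, as the rows of the deposited table of array values whose annotated symbol was in a fixed list, with the probe set (transcript cluster) of the highest mean over all arrays kept where a symbol had several. Of the 59 genes, 50 were measured among 14884 named genes. No cluster carried the symbol of the other 9 (NCAPD2, NCAPG, NCAPH, SPC24, SPC25, NUF2, TPX2, TACC3 and DLGAP5), which were not analysed here. KIFC1 alone had more than 1 cluster, with 4, and all others had 1.

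RNA was taken from RWPE-1, an established benign prostate epithelial cell line immortalized with a human papillomavirus. Both groups carried a lentivirus with a GFP tracer and were sorted for GFP into polyclonal populations, so each is a mixed population of transduced cells and not a clone. The 3 RWPE1-CTRL samples expressed a scrambled RNA, and the 3 RWPE1-183FC samples expressed the miR-183 full cluster, the genomic stretch that holds the microRNAs miR-183, miR-96 and miR-182. All 6 samples grew in KSFM, a serum-free keratinocyte medium, were taken below confluence from a pair of dishes each, and were hybridised to 1 array each. Values are log2 expression after RMA, a method that corrects, quantile normalizes and summarizes array probes, so a step of 1 is a doubling. The question was whether the mitotic genes differed between RWPE1-183FC and RWPE1-CTRL cells, and how the arrays differed among themselves.

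The arrays were first checked for the overexpressed cluster. The cluster annotated to MIR96 read 2.46, 2.67 and 1.92 in RWPE1-CTRL replicates 1, 2 and 3 and 5.19, 5.54 and 5.93 in RWPE1-183FC, and the groups did not overlap. That of MIR183 read 3.03, 2.27 and 2.31 against 4.05, 4.42 and 4.55, again without overlap, whereas MIR182 read 2.67, 2.90 and 3.24 against 3.28, 3.11 and 3.44 and overlapped. All 6 values of MIR182 lay below every array median. The study measured mature miR-183, miR-96 and miR-182 by RT-qPCR and reported overexpression of the cluster members in these cells. Array medians lay between 3.82 and 3.86, and correlations between arrays between 0.976 and 0.984. In a principal component analysis both replicate 2 arrays lay away from the rest on the first axis (39.1% of the variance), and the groups parted on the second (19.8%). Of the basal epithelial markers, KRT5 read 9.30 to 9.86 on the 6 arrays and KRT15 4.21 to 5.59, and of the luminal markers, KRT18 read 10.46 to 10.58 and KLK3 3.63 to 4.01. The stromal markers DCN and LUM read 1.61 to 2.87, below every array median. Of the leukocyte markers, CD14 read 3.34 to 3.98 and CD68 9.01 to 9.87.

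Mitosis is driven by CDK1 bound to cyclin B, which the CDC25 phosphatases switch on and which PLK1 and the Aurora kinases work beside. Kinetochores built on the centromere hold microtubules, kinesin motors shape the spindle, and the checkpoint delays the anaphase-promoting complex until every chromosome is attached. Most of these genes are transcribed in G2 and mitosis, so that their mRNA level in a growing culture follows in part how many cells divide. In RNA from a whole dish, fewer dividing cells and less RNA per dividing cell cannot be told apart. Their promoters are known for a cell cycle element, the CHR, and for CCAAT boxes, through which the DREAM complex, B-MYB with FOXM1, and NF-Y act.

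The products that were overexpressed are shown first, as the treatment of the study. These are the mature 5p strands of the cluster on the minus strand of human chromosome 7 from RefSeq (GRCh38.p14), with the seed, bases 2 to 8, in capitals. No pair of them shared the whole seed.
hsa-miR-183-5p: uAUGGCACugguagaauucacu
hsa-miR-96-5p: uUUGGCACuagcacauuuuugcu
hsa-miR-182-5p: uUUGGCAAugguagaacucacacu

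Promoter sequences, from 250 bases before to 50 bases after the start in RefSeq (GRCh38.p14), matched 43 of the 50 measured genes by symbol. The CHR, searched as TTTGAA or TTTAAA on both strands, was present in 32 of the 43 (74.4%), against 24.3% of all 27305 promoters of the same length and 18.7% of the 10749 of named genes on the arrays. TTTGAA alone was present in 65.1% of the 43 and in 15.4% of all promoters. A CCAAT box, searched as CCAAT on both strands with no overlap to the CHR letters required or barred, was present in 30 (69.8%) against 35.7%, and at least 2 CCAAT boxes in 15 (34.9%) against 11.3%. A CHR together with at least 2 CCAAT boxes was held by 11 (25.6%) and by 2.77% of all promoters. Neither motif was in the window of CDC25B, CDC25C, CDCA5, CKAP2 or MELK. A match of letters is a description and not evidence of binding, and a gene without one lacks only these spellings in this window.

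The promoters of 5 of the genes named below are printed 5′ to 3′ on the strand of the gene. CHR and CCAAT matches on either strand are in capitals, so that ATTGG is a CCAAT box and TTCAAA a CHR read on the opposite strand. CCNB1 encodes cyclin B1 (chr5:69166900-69167199, plus strand) and had a CHR whose first base lay at -30 from the start and CCAAT boxes at -87 and -55. The window of KIF20A, a motor of the central spindle (chr5:138178862-138179161, plus strand), had a CHR at -41 and CCAAT boxes at -94 and -67. That of KIF11, the motor that pushes the spindle poles apart (chr10:92592880-92593179, plus strand), had a CHR at -28 and 1 CCAAT box at -53. SKA3, part of the complex that keeps kinetochores on microtubules (chr13:21176503-21176802, minus strand), had a CHR at -3 and no CCAAT box. CDC25B, a phosphatase that activates CDK1 (chr20:3786701-3787000, plus strand), had neither and is shown because it went the other way on the replicate 2 arrays.
CCNB1: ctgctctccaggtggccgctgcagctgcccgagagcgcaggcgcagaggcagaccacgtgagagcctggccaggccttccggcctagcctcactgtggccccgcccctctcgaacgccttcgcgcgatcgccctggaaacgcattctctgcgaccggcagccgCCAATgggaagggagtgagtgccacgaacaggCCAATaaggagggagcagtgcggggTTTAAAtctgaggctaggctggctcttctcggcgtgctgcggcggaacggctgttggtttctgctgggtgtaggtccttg
KIF20A: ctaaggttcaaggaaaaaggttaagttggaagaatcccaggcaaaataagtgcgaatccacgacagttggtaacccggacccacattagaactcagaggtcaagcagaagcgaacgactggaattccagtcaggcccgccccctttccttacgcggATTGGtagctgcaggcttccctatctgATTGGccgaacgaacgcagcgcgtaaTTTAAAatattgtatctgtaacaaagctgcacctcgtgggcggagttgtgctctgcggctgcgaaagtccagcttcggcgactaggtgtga
KIF11: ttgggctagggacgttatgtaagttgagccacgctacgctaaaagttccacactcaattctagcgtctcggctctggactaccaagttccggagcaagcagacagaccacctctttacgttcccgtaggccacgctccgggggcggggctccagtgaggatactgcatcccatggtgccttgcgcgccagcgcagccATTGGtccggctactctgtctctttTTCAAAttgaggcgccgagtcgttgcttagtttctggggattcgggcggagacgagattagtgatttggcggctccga
SKA3: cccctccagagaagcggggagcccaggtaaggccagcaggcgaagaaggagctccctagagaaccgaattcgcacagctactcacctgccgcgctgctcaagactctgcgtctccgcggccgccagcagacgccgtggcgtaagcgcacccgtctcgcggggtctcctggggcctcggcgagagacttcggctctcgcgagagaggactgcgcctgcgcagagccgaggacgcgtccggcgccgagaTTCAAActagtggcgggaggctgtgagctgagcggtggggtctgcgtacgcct
CDC25B: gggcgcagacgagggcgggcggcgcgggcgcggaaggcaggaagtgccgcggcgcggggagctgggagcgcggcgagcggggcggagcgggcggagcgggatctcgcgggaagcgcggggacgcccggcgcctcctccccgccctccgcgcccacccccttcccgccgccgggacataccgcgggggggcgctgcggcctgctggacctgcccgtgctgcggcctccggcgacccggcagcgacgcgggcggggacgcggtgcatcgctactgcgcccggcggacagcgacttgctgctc

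Between RWPE1-183FC and RWPE1-CTRL, the mitotic genes had a small median difference and no gene was called. None of the 45 that passed the filter on low level and low variance was called lower or higher by limma at the study's thresholds, a Benjamini-Hochberg false discovery rate (FDR) under 0.2 and a fold change over 1.5, where 0.939% of the 9583 genes tested were called (90). At an unadjusted p under 0.05, 2 of the 45 passed, SKA3 and KIF11, against 4.74% of the genes tested. Without the filter none of the 50 was called and SKA3 alone had an unadjusted p under 0.05. The median log2 fold change of the 50 was -0.08, which is 5.31% lower in RWPE1-183FC, beside 0.01 over all named genes. The group mean was lower in RWPE1-183FC for 35 genes (70.0%, against 48.0% of all named genes) and higher for 15, and 41 of the 50 differed by under 20% either way (82.0%, against 84.1%). Single genes ranged from -0.60 for SKA3 to 0.27 for NEK2, a centrosome kinase.

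The median was not the same in each pair of equally numbered arrays. It was 0.02 between the replicate 1 arrays, -0.22 between the replicate 2 arrays and -0.07 between the replicate 3 arrays (-0.0022, 0.01 and 0.01 over all named genes). Without RWPE1-183FC replicate 2 the median over the list was 0.10, of the opposite sign, and without both replicate 2 arrays it was -0.01. Standard errors of the log2 fold changes were 0.22 to 0.23 in the fit. There limma drew them nearly to a common value, so an SE printed beside a gene says little of its own spread. They were 0.13 to 0.35 in the fit without the filter. The 95% intervals of that fit lay within a 2-fold difference either way for 48 of the 50. The widest bounds were -1.19 and 0.77.

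**Figure D1:**
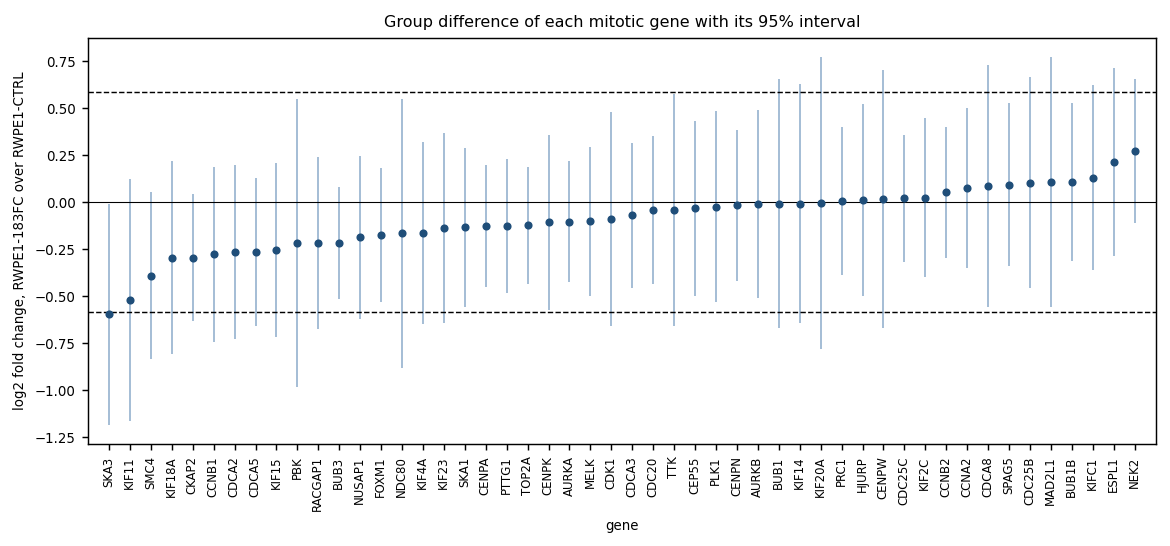
Log2 fold change of RWPE1-183FC over RWPE1-CTRL (vertical axis) for each of the 50 measured mitotic genes, in order of size along the horizontal axis. Points are differences of the means of 3 arrays, bars are 95% intervals from the limma fit without the filter, and dashed lines mark 1.5-fold. The points run from -0.60 for SKA3 to 0.27 for NEK2, and most bars cross 0.

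Among the centromere and kinetochore genes, 8 of 11 were measured and 6 of the 8 had a lower mean in RWPE1-183FC (median -0.12). SKA3 read 8.21, 7.86 and 8.42 in RWPE1-CTRL replicates 1, 2 and 3 (8.16 ± 0.28, SD, n = 3) and 7.997, 6.94 and 7.76 in RWPE1-183FC (7.57 ± 0.55). It was lower in RWPE1-183FC in each numbered pair, but the groups overlapped, since RWPE1-CTRL replicate 2 lay below RWPE1-183FC replicate 1. The log2 fold change was -0.60 (SE 0.23, limma adjusted p = 0.527), a 1.51-fold difference and the lowest adjusted p of the list. With the replicate number as a block it was called lower (SE 0.17, limma adjusted p = 0.132), the only gene of the 45, where 0.814% of the 9583 genes were called lower. With the block and no filter on genes it was not called. HJURP, the chaperone that loads the centromeric histone CENP-A, read 8.33, 7.83 and 8.41 in RWPE1-CTRL and 8.43, 7.75 and 8.44 in RWPE1-183FC and its group means were 0.01 apart.

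All 9 kinesins were measured, and 7 had a lower mean in RWPE1-183FC (median -0.14). KIF11 read 8.98, 8.37 and 9.25 in RWPE1-CTRL (8.87 ± 0.45) and 8.45, 7.78 and 8.82 in RWPE1-183FC (8.35 ± 0.53). Each RWPE1-183FC array was below the RWPE1-CTRL array of its number by 0.43 to 0.60. Replicate 2 differed from the mean of replicates 1 and 3 by more, -0.74 in RWPE1-CTRL and -0.86 in RWPE1-183FC. Replicates 1 and 3 differed from each other by less, 0.27 and 0.37. Its log2 fold change was -0.52 (SE 0.23, limma adjusted p = 0.818), below 1.5-fold in size. With the replicate number as a block its limma adjusted p was 0.180, under the FDR threshold, and its size kept it from being called. The log2 fold changes of the other 8 kinesins lay between -0.29 (KIF18A) and 0.13 (KIFC1). KIF14, a motor needed for cytokinesis, read 8.93, 8.66 and 9.45 against 9.08, 8.42 and 9.52, a log2 fold change of -0.01. Of the 4 clusters of KIFC1, 2 held identical values and were the brightest, 1 read 6.62 to 7.33 and 1 read 4.17 to 4.60.

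The condensin, topoisomerase and scaffold group held 3 measured genes of 6, all with lower means in RWPE1-183FC (median -0.27). SMC4, an ATPase core of both condensins, read 8.76, 8.41 and 8.79 in RWPE1-CTRL (8.65 ± 0.21) and 8.30, 7.90 and 8.59 in RWPE1-183FC (8.26 ± 0.35), with a log2 fold change of -0.39 (SE 0.22, limma adjusted p = 0.999). It was lower in every numbered pair, and RWPE1-183FC replicate 3 lay above RWPE1-CTRL replicate 2. TOP2A, the topoisomerase that untangles sister chromatids, read 10.19, 10.36 and 10.35 against 10.18, 10.10 and 10.26, with a fold change of -0.12. The third gene was CDCA2, a chromatin anchor of a phosphatase, at -0.27.

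Groups without overlap were seen for 2 of the 50 genes, CKAP2 and BUB3, both lower in RWPE1-183FC, where 4.57% of all named genes were lower without overlap. None was higher without overlap, against 5.16% of all named genes. CKAP2, which binds and stabilizes spindle microtubules, read 7.86, 7.68 and 7.82 in RWPE1-CTRL and 7.63, 7.29 and 7.57 in RWPE1-183FC, with a log2 fold change of -0.29 (SE 0.22, limma adjusted p = 0.999). BUB3, a checkpoint protein, read 10.05, 10.02 and 10.08 against 9.89, 9.79 and 9.83. Its fold change was -0.21, and it did not pass the variance filter, so it was not tested in the main fit. The SD of the 3 arrays in RWPE1-CTRL and RWPE1-183FC was 0.03 and 0.05 for BUB3, and 0.10 and 0.18 for CKAP2.

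In the remaining role groups no gene had an unadjusted p under 0.05. The group of cyclins, CDK1 and the kinases and phosphatases that start mitosis also held the transcription factor FOXM1 and CDCA3. All 13 of its 13 genes were measured, with 8 lower and 5 higher means and a median of -0.07. CCNB1 had the largest fold change of that group, -0.28, with 8.90, 8.75 and 9.19 in RWPE1-CTRL and 9.03, 8.27 and 8.70 in RWPE1-183FC, higher in pair 1 and lower in pairs 2 and 3. CCNA2, the cyclin of S phase and G2, read 9.87, 9.50 and 9.98 against 10.01, 9.53 and 10.03. The spindle checkpoint and anaphase group, 9 of 9 measured, had a median of -0.04. Its largest fold change, -0.26, was that of CDCA5, the protector of cohesion known as sororin, at 6.35, 6.01 and 6.19 against 6.12, 5.62 and 6.03. The 4 measured spindle assembly genes of 7 had a median of -0.09, among them NUSAP1, a microtubule bundler, at 8.95, 8.92 and 9.34 against 9.07, 8.53 and 9.05. The 4 passenger complex and cytokinesis genes had a median of -0.02. RACGAP1, part of centralspindlin, read 4.66, 4.76 and 4.24 against 4.62, 3.99 and 4.41 for a fold change of -0.22, and AURKB, the kinase of the passenger complex, 8.82, 8.32 and 8.78 against 8.91, 8.17 and 8.83 for -0.01.

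**Figure D2:**
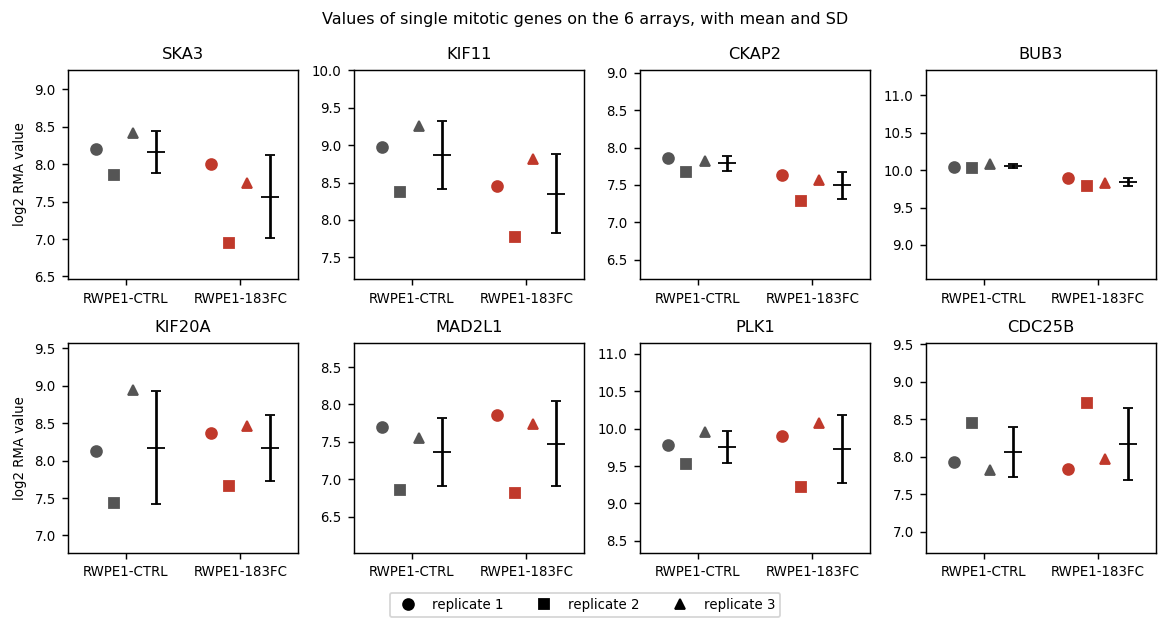
Log2 RMA values of 8 mitotic genes on each array (vertical axis, the same span in each panel) in RWPE1-CTRL (grey) and RWPE1-183FC (red). Symbols mark the replicate number, and the bar beside them is the mean with SD of 3 arrays. The square of replicate 2 is the lowest of its group in every panel except CDC25B, where it is the highest, and the groups are apart only for CKAP2 and BUB3.

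On the mitotic genes, the replicate 2 arrays stood further from the other arrays of their group than the groups stood from each other. Replicate 2 was the lowest of its group for 43 of the 50 genes in RWPE1-CTRL and for 47 in RWPE1-183FC, and it was the lowest in both groups for 42 (84.0%), where this held for 18.5% of all named genes and 24.4% of those above the median level. It was the highest in both groups for 1 gene, CDC25B, against 20.2% of all named genes. The median over the 50 genes was 7.73, 7.35 and 7.79 on RWPE1-CTRL arrays 1, 2 and 3, and 7.77, 7.06 and 7.74 on the RWPE1-183FC arrays. RWPE1-183FC replicate 2 was the lowest of all 6 arrays for 40 genes and RWPE1-CTRL replicate 2 for 7, RWPE1-183FC replicate 3 for 2 and RWPE1-CTRL replicate 3 for 1. With 1 array set against 2 in a group, these differences have no replicate check and were given no test. The list of genes was chosen with earlier results of these data known, so these shares describe the arrays and are no independent support.

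**Figure D3:**
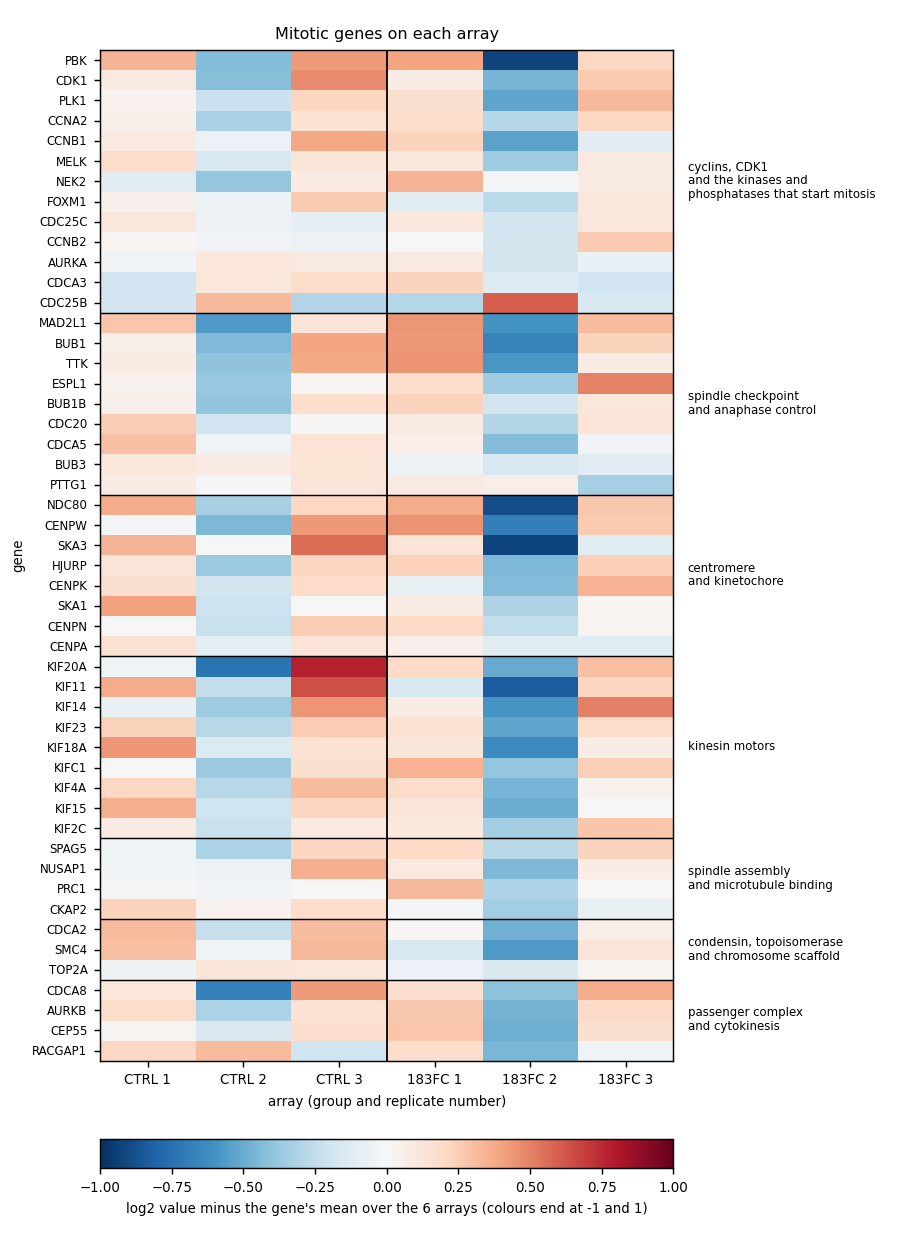
Log2 value of each measured mitotic gene on each array minus the mean of that gene over the 6 arrays, in colour (blue lower, red higher), with genes as rows grouped by role and arrays as columns. The columns of replicate 2 of both groups are blue for most genes, deepest for RWPE1-183FC, and CDC25B is red in both.

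Taken from the mean of replicates 1 and 3, replicate 2 differed by a median of -0.39 in RWPE1-CTRL, which is 23.6% lower, and of -0.55 in RWPE1-183FC, 31.6% lower. Over all named genes both medians were 0.01. Replicate 3 differed from replicate 1 by a median of 0.09 in RWPE1-CTRL and -0.06 in RWPE1-183FC. The difference was over 0.3 downwards in both groups for 32 of the 50 genes (64.0%, against 6.67% of all named genes). It was lower in RWPE1-183FC than in RWPE1-CTRL for 40 of the 50, beside 7199 of all 14884, and this gap between the groups was not tested. Of each gene's variation over the 6 arrays, a median of 80.2% lay between replicate numbers and 4.97% between groups (3 numbers against 2 groups), while the medians over all named genes were 47.9% and 11.2%. Across the 50 genes, the replicate 2 differences of the groups had r = 0.76 (0.51 across all named genes), a description only, since genes of 1 array share its RNA and hybridisation. The labels do not say whether arrays of one number share a day, a passage or a batch of reagents, and what set replicate 2 apart was not tested.

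The largest replicate 2 differences, averaged over the groups, were those of PBK, KIF20A, NDC80, MAD2L1 and CENPW. PBK, a kinase active in mitosis, read 7.14, 6.37 and 7.23 in RWPE1-CTRL and 7.19, 5.87 and 7.01 in RWPE1-183FC, so that replicate 2 differed from the mean of its companions by -0.82 and -1.23, the latter 2.35-fold. KIF20A read 8.13, 7.44 and 8.95 against 8.37, 7.67 and 8.47, and its -1.10 in RWPE1-CTRL was 2.14-fold and the lowest of the list in that group. Its RWPE1-CTRL replicate 3 was the highest of all 6 arrays. NDC80, the outer kinetochore protein that grips microtubules, read 8.03, 7.33 and 7.86 against 8.03, 6.77 and 7.93. MAD2L1, the checkpoint protein that holds back CDC20, read 7.70, 6.85 and 7.55 against 7.86, 6.82 and 7.73. CENPW, a histone-fold protein of the inner centromere, read 6.89, 6.45 and 7.33 against 7.35, 6.21 and 7.16. For each of these 5 genes both replicate 2 arrays lay below all 4 others, and the group means differed by at most 0.22.

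Replicate 2 was low in each role group. It was the lowest in both groups for all 9 kinesins (medians -0.52 in RWPE1-CTRL and -0.69 in RWPE1-183FC) and for all 8 measured centromere and kinetochore genes (-0.43 and -0.63). The same held for 8 of 9 checkpoint and anaphase genes (-0.41 and -0.46) and for 4 of 4 spindle assembly genes (-0.20 and -0.48). It held for 3 of 4 passenger and cytokinesis genes (-0.36 and -0.69) and 2 of 3 of the condensin and scaffold group (-0.36 and -0.52). The group of cyclins, kinases and phosphatases was the most mixed, with 8 of 13 and medians of -0.30 and -0.32. Within it CDK1, chosen for mention after its values were seen, read 7.46, 6.94 and 7.84 against 7.44, 6.91 and 7.63, and PLK1, likewise, 9.78, 9.52 and 9.96 against 9.90, 9.22 and 10.07.

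The 8 genes that were not lowest in replicate 2 of both groups were named after their values were seen. CDC25B read 7.92, 8.45 and 7.83 in RWPE1-CTRL and 7.83, 8.71 and 7.97 in RWPE1-183FC, so that both replicate 2 arrays stood above all others, and above the mean of their companions by 0.57 and 0.82. TOP2A and RACGAP1 were highest in replicate 2 of RWPE1-CTRL and lowest in that of RWPE1-183FC, as was AURKA, the spindle pole kinase, at 7.22, 7.37 and 7.35 against 7.35, 7.08 and 7.20. CCNB2 and CDC25C lay in the middle in RWPE1-CTRL and lowest in RWPE1-183FC, and PTTG1, the securin that restrains separase, was lowest in RWPE1-CTRL and in the middle in RWPE1-183FC. CDCA3, a trigger of mitotic entry, lay in the middle in both. The range over the list ran from -1.10 to 0.57 in RWPE1-CTRL and from -1.23 to 0.82 in RWPE1-183FC.

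**Figure D4:**
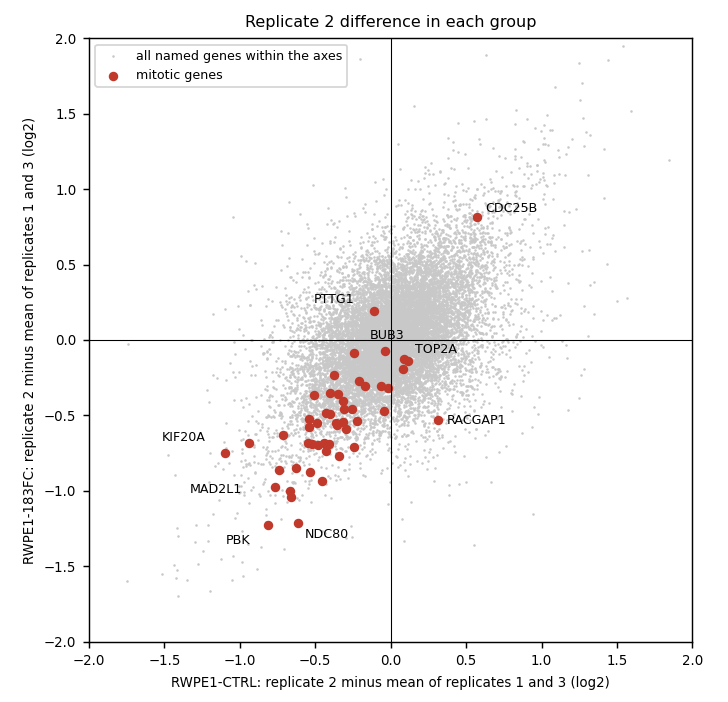
Difference of replicate 2 from the mean of replicates 1 and 3, on the log2 scale, in RWPE1-CTRL (horizontal axis) and RWPE1-183FC (vertical axis), for 50 mitotic genes (red) and all named genes within the axes (grey). Most red points lie to the lower left of the origin, around medians of -0.39 and -0.55, with CDC25B alone in the upper right.

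The promoter windows searched above were set beside these values. A gene counted as without a motif lacked it in the searched spellings and window only. Replicate 2 differed by medians of -0.41 and -0.58 for the 32 genes with a CHR and of -0.36 and -0.46 for the 11 without one. For the 30 with a CCAAT box the medians were -0.42 and -0.66, and for the 13 without -0.36 and -0.46. The 5 genes with neither, CDC25B among them, had medians of -0.17 and -0.31. Replicate 2 was the lowest in both groups for 28 of the 32 genes with a CHR and 9 of the 11 without. It was so for 26 of the 30 with a CCAAT box, 11 of the 13 without and 3 of the 5 with neither. These sets share genes, and the differences between them were not tested. The group difference was a median of -0.06 with a CHR and -0.01 without, but -0.02 with a CCAAT box and -0.13 without, and -0.10 with neither motif.

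With both replicate 2 arrays set aside, which left 2 arrays a group, 13 mitotic genes were lower in RWPE1-183FC without overlap and 8 higher, beside 16.3% and 17.0% of all named genes. The mean was then lower in RWPE1-183FC for 26 of the 50 genes. None of the 35 genes past the filter was called by limma in that fit, where 1.29% of the 9494 genes tested were called. None of the 35 had an unadjusted p under 0.05, against 5.85% of the genes tested.

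Other genes of division and growth were read from lists of related pathways. Of their 105 measured genes 90 passed the filter. None of the 90 was called by limma in the comparison of the groups, against 0.939% of all genes tested, and 1, CDKN2A, had an unadjusted p under 0.05, against 4.74%. Replicate 2 was low in some lists and not in others. In the DNA replication list, 23 genes measured, it was the lowest in both groups for 22, with medians of -0.71 in RWPE1-CTRL and -0.56 in RWPE1-183FC. PCNA, the sliding clamp, had the largest group difference there, 0.34, at 9.14, 8.93 and 9.50 in RWPE1-CTRL and 9.63, 9.29 and 9.66 in RWPE1-183FC, and the groups overlapped. In the list of further spindle, centrosome and cytokinesis genes, it was the lowest in both for 13 of 16 (medians -0.26 and -0.33). KIF20B, a kinesin of cytokinesis, had the largest group difference there, -0.42, at 8.98, 8.58 and 9.48 against 8.79, 8.05 and 8.97. The list of mitotic kinase regulators and division controllers had 9 of 15 (-0.45 and -0.41), and its largest group difference was that of E2F7, a repressor of cell cycle genes, 0.39, at 7.77, 7.98 and 7.28 against 7.88, 8.47 and 7.86. Further kinetochore, centromere and passenger genes had 8 of 17 (-0.28 and -0.23), with OIP5, a factor of CENP-A loading, at 0.27.

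The list of subunits and regulators of the anaphase-promoting complex had replicate 2 medians of 0.01 and -0.06. Replicate 2 was the lowest in both groups for 6 of 16, among them FZR1, a coactivator, and FBXO5, an inhibitor of the complex, which were named after their values were seen. The subunit ANAPC16, which had the largest group difference of -0.34, was higher in replicate 2, at 8.25, 8.76 and 7.62 in RWPE1-CTRL and 7.47, 8.71 and 7.42 in RWPE1-183FC. The cohesin list had 4 of 10 (-0.08 and -0.33). SMC3, a core subunit of cohesin, read 10.12, 10.01 and 10.24 against 9.77, 9.47 and 9.95, a log2 fold change of -0.39 without overlap (limma adjusted p = 0.999). The list of CDK inhibitors and quiescence genes had 4 of 8 (-0.15 and -0.18). Its largest group difference was that of CDKN2A, which encodes the CDK inhibitor p16, at 6.80, 6.63 and 6.34 against 7.19, 6.94 and 6.99, a log2 fold change of 0.45 without overlap (limma adjusted p = 0.999). The difference between lists was not tested.

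**Figure D5:**
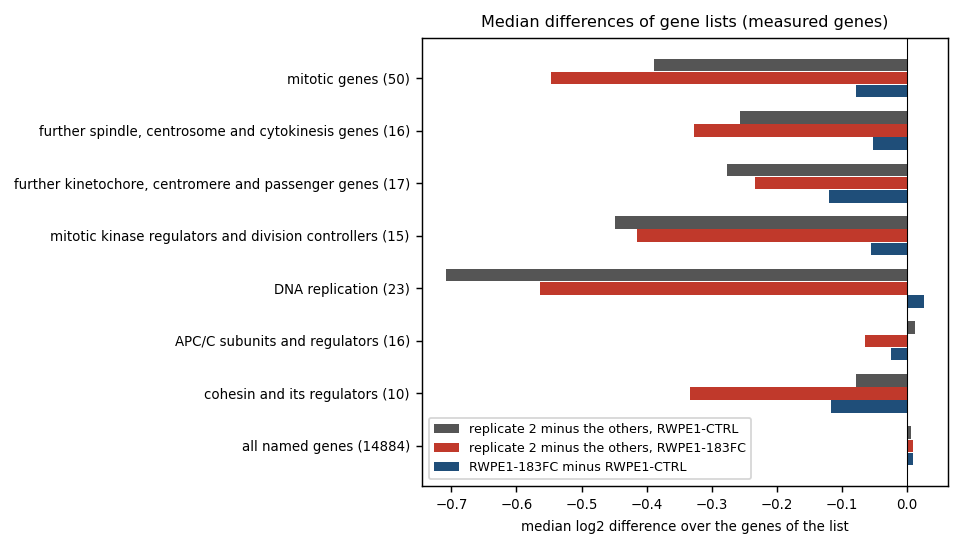
Median log2 difference over the measured genes of each list (number in brackets), with bars for replicate 2 minus the mean of replicates 1 and 3 in RWPE1-CTRL (grey) and RWPE1-183FC (red), and for RWPE1-183FC minus RWPE1-CTRL (blue). The replicate 2 bars reach -0.71 for DNA replication and -0.39 and -0.55 for the mitotic genes, while every blue bar lies between -0.12 and 0.03.

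Markers of cell types moved with the replicate 2 arrays in part. Among 4 measured basal markers of 7, KRT14, a keratin of basal cells, read 9.74, 8.82 and 9.84 in RWPE1-CTRL and 9.69, 8.70 and 9.73 in RWPE1-183FC, lower in both replicate 2 arrays, and DSG3, a desmosomal cadherin, read 8.54, 8.69 and 7.48 against 7.95, 8.69 and 7.71, higher in both. Replicate 2 of KRT5 differed by -0.17 and 0.07. KRT15 was the only marker called between groups, higher in RWPE1-183FC with a log2 fold change of 0.96 (SE 0.22, limma adjusted p = 0.006). The 4-gene median of the basal list ranged from 8.66 to 9.01 in RWPE1-CTRL and from 8.50 to 8.71 in RWPE1-183FC. The 5 luminal markers measured of 10 had medians of 4.26 to 4.48 and 3.95 to 4.39, the 3 endothelial of 4 had 3.12 to 3.38 and 3.14 to 3.48, and the 2 stromal of 9 had 2.19 to 2.69 and 2.23 to 2.61. Of the 2 leukocyte markers measured of 5, CD68, a lysosomal protein, read 9.15, 9.87 and 9.26 against 9.04, 9.68 and 9.01 and was highest in both replicate 2 arrays (list medians 6.27 to 6.71 and 6.19 to 6.83). The part of these markers in the replicate 2 difference of the mitotic genes was not tested.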

How the data were processed

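Total RNA of 3 RWPE1-CTRL and 3 RWPE1-183FC samples was labelled with biotin and hybridised to Affymetrix gene arrays. The methods of the study name the Human Gene 1.0 ST array and an annotation of the 2.0 version, and the deposited table has 53617 transcript clusters. The authors normalized the scans by RMA and deposited log2 values, 1 column per sample. No counts or detection calls were used, and the number of arrays limits the precision.

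Groups and replicate numbers came from the sample labels. The study calls the samples biological triplicates, and the labels do not say whether same-numbered arrays share a culture or day. Clusters were named through the platform annotation given with the table, 16098 with 1 symbol and 37519 with none. For each of 14884 symbols the cluster with the highest mean of the 6 arrays was kept. Following the methods of the study, the filter dropped each gene whose median, or whose variance, ranked below the percentile of 20, and 9583 stayed. Groups were compared with limma 3.58.1 in R 4.3.3 (lmFit and eBayes, no covariate, Benjamini-Hochberg over all genes tested), with an FDR under 0.2 and a fold change over 1.5 as thresholds. The fit with no block was tried on simulated data, with and without the filter. These data had the same noise for every gene, no replicate 2 difference and planted differences larger than any of the mitotic genes. The block, the array weights and the left-out arrays were not tried in this way.

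The deviations of same-numbered arrays from their group means correlated across genes at 0.10, 0.51 and 0.29 for numbers 1, 2 and 3. Pairs of unlike number gave -0.41 to 0.21, the highest for RWPE1-CTRL 3 with RWPE1-183FC 1, above the 0.10 of number 1. All 3 same-number values were over 0.1, the bar set for pairing, which rests on the data and not on the labels. Deviations cancel within a group, so the shared replicate 2 difference by itself pushes up the values among numbers 1 and 3, alike or unlike. Passing the bar thus reflects the likeness of the replicate 2 arrays and does not show a pairing of numbers 1 and 3. The main fit had no block, as in the methods of the study, and the fit with the number as a block was an alternative, printed where it changed a call. Others were no filter, a filter on the median only, a stricter FDR, no fold threshold, renormalization, centring, the mean of all clusters, array weights, a trended prior and leaving out arrays.

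Replicate 2 was described as its value minus the mean of replicates 1 and 3 of its group. Promoters and microRNAs came from RefSeq (GRCh38.p14). Tables and plots were made with Python 3.11.15 and matplotlib 3.10.9. The genes named with values were those called, those without overlap between groups, the gene of largest fold change and the brightest of each role group, the 5 with the largest replicate 2 difference, and from each other pathway list the called genes or the 1 of largest fold change. The marker genes with values were picked after these were seen. The list of mitotic genes, the role groups and the other lists were chosen with earlier results of these data known.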

Additional observations from a re-analysis of the deposited data

How the results depend on the processing

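No mitotic gene was called by limma in 17 of 18 alternative settings. Among these, the stricter FDR and the absent fold threshold reused the main fit. Its lowest limma adjusted p among the mitotic genes was 0.527, so neither setting could call one. The replicate block, which treats same-numbered arrays as pairs though the labels do not say that they are, called 1, SKA3. It raised the calls among all named genes from 90 to 162 and changed the call of no other mitotic gene. With that block KIF11 passed the FDR (limma adjusted p = 0.180) but not the fold threshold. With the replicate block and no filter, an alternative added after seeing the data, 0 mitotic genes and 109 of all named genes were called, and the lowest adjusted p among the mitotic genes was 0.281 (KIF11). Among all named genes, unfiltered data gave 36 calls, filtering by the median alone 37, an FDR under 0.05 gave 51 and array weights 192. With 1 array left out they ranged from 43 (without RWPE1-183FC replicate 1) to 152 (without RWPE1-183FC replicate 2). RWPE1-CTRL replicate 1 left out gave 58, and RWPE1-183FC replicate 3 left out gave 57. The cause of these changes was not tested.

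Mitotic genes without overlap between groups numbered 2, from 3 (without RWPE1-CTRL replicate 1) to 13 (without RWPE1-CTRL replicate 2) with 1 array left out, and 21 without both replicate 2 arrays. Among all named genes the share without overlap was 9.73% with all arrays, 18.01% to 21.58% with 1 array left out and 33.3% without both replicate 2 arrays, beside 4%, 6% to 26% and 42% of the mitotic genes. Leaving out RWPE1-CTRL replicate 3 gave 4. Leaving out replicates 1, 2 and 3 of RWPE1-183FC gave 6, 10 and 5. The median log2 fold change over the mitotic genes ranged from -0.20 (without RWPE1-CTRL replicate 2) to 0.10 (without RWPE1-183FC replicate 2). In each of these settings the low replicate 2 array of the other group stayed in. Without both replicate 2 arrays the median was -0.01. The median replicate 2 difference stayed between -0.35 and -0.43 in RWPE1-CTRL and between -0.51 and -0.62 in RWPE1-183FC with quantile normalization again, centring, the mean of all clusters, or either companion array alone (the last chosen after seeing the data). With 3 arrays a group, the number of arrays limits the precision.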
